A study of Mus musculus with 16 samples.

Results

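The genes described here carry glucose to lactate or into the mitochondrion: 34 mouse genes for glucose transporters, the enzymes of glycolysis, the bifunctional enzymes that set fructose 2,6-bisphosphate, lactate dehydrogenases, lactate transporters, and pyruvate dehydrogenase with its kinases. They were taken by gene symbol from the gene probes of an Agilent mouse array, where Pkm2 is the symbol used for the muscle-type pyruvate kinase gene. All 34 had a probe, and together they had 62 of the 41174 gene probes. After removal of probes that were rarely above background, 61 of the 62 probes were left, and the 34 members were part of 23192 genes tested.

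In glycolysis a cell splits glucose into pyruvate, gaining a little ATP, and pyruvate is then either reduced to lactate and exported or oxidised in the mitochondrion by pyruvate dehydrogenase. Hexokinase, phosphofructokinase and pyruvate kinase catalyse the steps that are not readily reversed, and most steps have isozymes that differ between tissues. Mouse embryonic stem (ES) cells represent the naive state of the preimplantation epiblast, and epiblast stem cells (EpiSC) the primed state of the postimplantation epiblast. Primed cells are known for leaning on glycolysis more exclusively than naive cells, and the hypoxia-inducible factors HIF1A and EPAS1 are known activators of many genes of this pathway.

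RNA of 16 cultures was labelled with Cy3 and hybridised to 1 array each. The NOD strain (non-obese diabetic mouse) gave an EpiSC-like ES line, number 1, at passages 7, 10, 5 and 9 (replicates 1 to 4), an EpiSC-like iPS line, number 6, at passages 7 and 12, and 3 arrays of ES cells. Non-NOD cells gave EpiSC at passages 12 and 20, 2 arrays of EpiSC iPS cells, 2 arrays of 129 ES cells named mESM and 1 named epiESM, the 129 ES cells at passage 8. The labels do not explain mESM and epiESM, nor the codes that set apart the NOD ES and the EpiSC iPS arrays. Each EpiSC-like group is 1 line, so its arrays are passages of that line, and p-values measure the spread between these cultures, which may be smaller than that between lines. ES cells were freed of feeder fibroblasts by preplating, whereas EpiSC and EpiSC-like colonies were cut out mechanically. In cultures that mix cell types, fewer cells of a type and less RNA per cell cannot be told apart.

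Some arrays resembled another group more than their own. Likeness was measured as the SD, over the 34 members, of the log2 difference of 2 arrays. For NOD ES replicate 1 it was 0.50 against EpiSC iPS replicate 1, but 0.91 and 0.90 against the other NOD ES arrays. For EpiSC iPS replicate 2 it was 0.15 and 0.21 against NOD ES replicates 2 and 3, but 1.06 against the other EpiSC iPS array. Both EpiSC iPS arrays had a summed signal of 8 naive ES markers of 9.88 to 10.22 (log2), within the 9.34 to 10.31 of the NOD ES arrays. All 8 markers were detected on them, and EpiSC, NOD EpiSC-like ES and NOD EpiSC-like iPS arrays had 4.96 to 6.22. The sum of 8 primed epiblast markers was 6.31 to 6.38 in EpiSC and 4.61 to 4.96 in the EpiSC-like ES line, but 3.88 to 3.92 in the iPS line, beside 2.75 to 3.79 on the 6 ES arrays and 3.17 to 4.15 in EpiSC iPS. Of these 8 primed markers, 7 were detected on each iPS line array, 8 on each EpiSC and EpiSC-like ES array, and 2 to 7 in NOD ES. In the iPS line T was detected on 0 of 2 arrays and Sp5 had a mean of -2.98 against 0.10 in NOD ES. The primed markers were thus mixed in the iPS line, with a sum just above the ES arrays. The name EpiSC-like is used for it as the label gives it. NOD ES replicate 1 and EpiSC iPS replicate 2 are called the doubtful arrays below, and counts are given with and without them. The 2 mESM arrays differed with an SD of only 0.04, against 0.14 to 0.36 for other pairs within a group that hold no doubtful array, and carry the same source name, so counts are also given with the pair averaged to 1 array. Between 26.3% and 88.5% of gene probes were well above background on an array, with the lowest value on NOD ES replicate 1.

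Values are processed signals on the log2 scale, centred per array on the 75th percentile, so 0 is that percentile and each step of 1 doubles the signal. A level can be compared between arrays for 1 probe, not between genes, since probes bind with different efficiency. A member was called higher or lower where limma's moderated test, fitted over all arrays, gave a Benjamini-Hochberg adjusted p under 0.05 among all genes tested.

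The 2 state comparisons set EpiSC or EpiSC-like cells against ES cells: NOD EpiSC-like (mean of both lines) against NOD ES, and EpiSC against 129 ES mESM. The labels give the strain of EpiSC only as non-NOD, so the second comparison may join strains. They share no array. In NOD cells 9 of the 34 members rose and 11 fell, which is 26.5% and 32.4%, where 17.3% and 20.8% of all genes were called. In non-NOD cells 4 rose (11.8% of the members against 12.6% of all genes) and 7 fell (20.6% against 11.5%). The share of members that rose there was thus near that of all genes. The median difference of the members was 0.0035 in NOD cells and -0.36 in non-NOD cells, beside all-gene medians of -0.22 and -0.28. The pathway did not move as 1 block, since isozymes of the same step differed in direction.

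**Figure D1:**
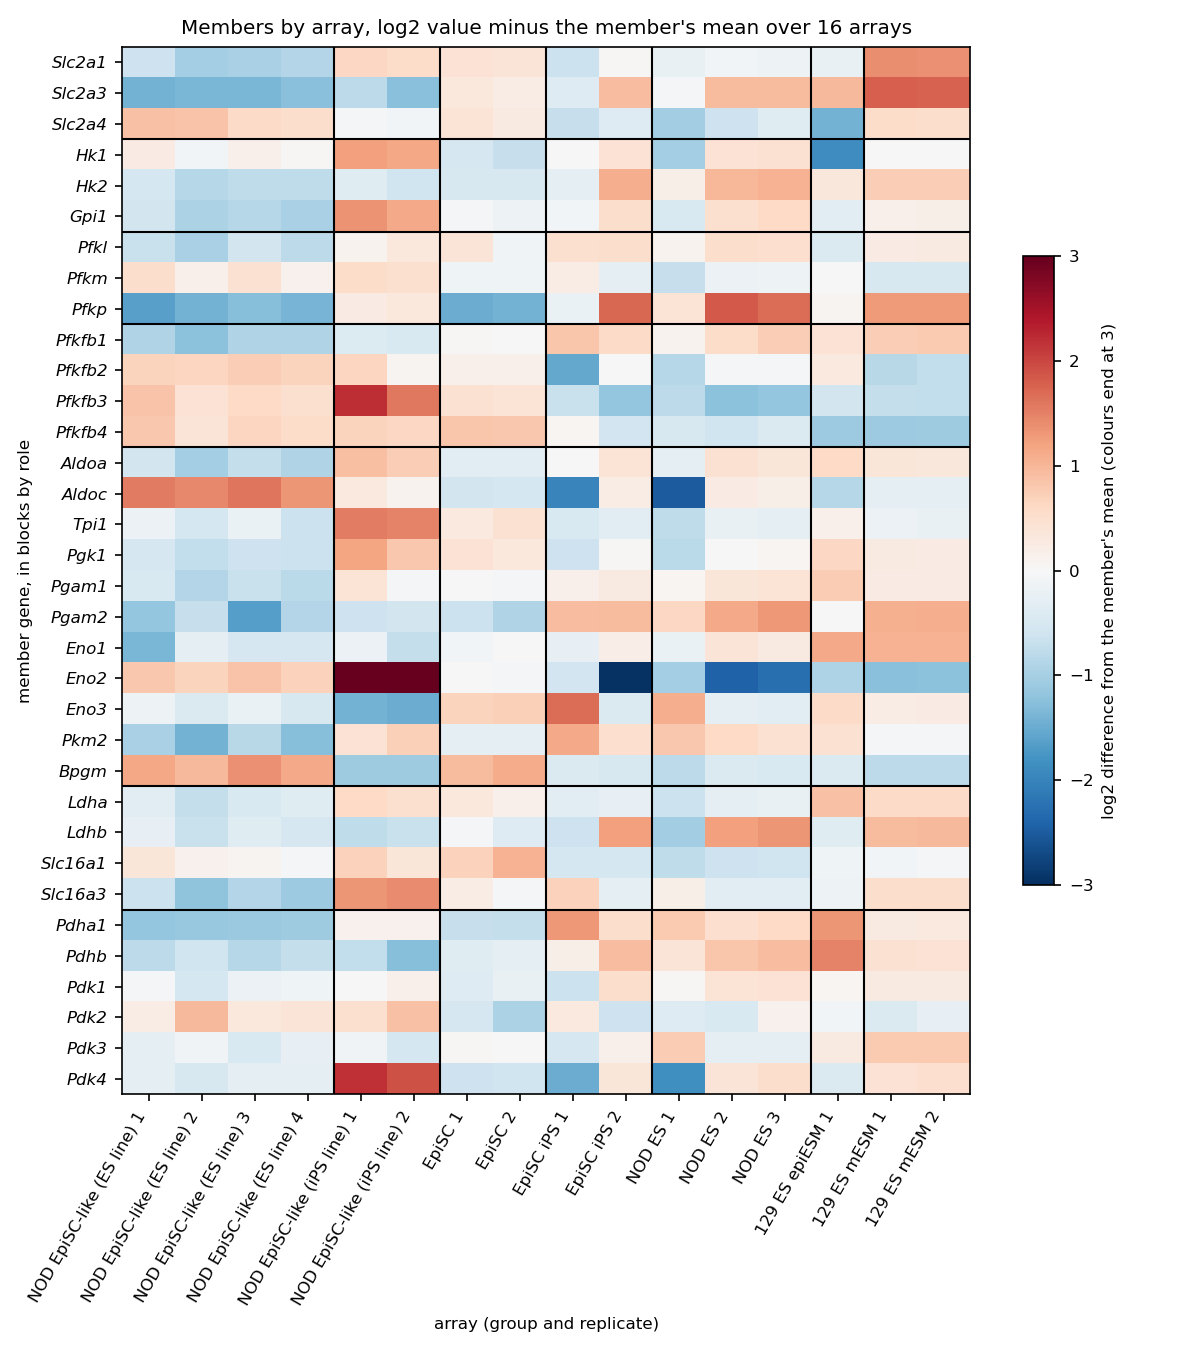
Level of the 34 members on the 16 arrays as log2 difference from the member's own mean (red higher, blue lower; colours end at 3), with arrays in columns by group and members in rows by role. Eno2 is the darkest red on both NOD EpiSC-like iPS arrays (4.47 and 4.37 on the scale of the text), and the 8 members whose EpiSC or EpiSC-like arrays and ES arrays do not overlap (Hk2, Pfkfb1, Pfkfb3, Pfkfb4, Pgam2, Eno2, Pdha1 and Pdhb) show as rows that split by state.

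Both comparisons called 10 members the same way. Pfkfb3, Pfkfb4, Slc16a1 and Bpgm rose in both, where 8.32% of all genes did. The NOD rise of Bpgm lay in the ES line only, since the iPS line was at -0.08, below NOD ES (0.19 to 0.55). Slc2a3, Pfkp, Pfkfb1, Pgam2, Eno1 and Pdha1 fell in both, where 7.19% of all genes did. Over the 8 arrays of EpiSC and both EpiSC-like lines against the 6 arrays of NOD ES, mESM and epiESM, 3 members were higher on every array with no overlap (7.27% of all genes were) and 5 were lower on every array (8.04% were). With the doubtful arrays left out, 13 rose and 15 fell in NOD cells, including all 20 called with them, where 24.3% and 27.1% of all genes were called. In non-NOD cells 8 rose and 15 fell, including all 11, where 21.8% and 22.6% of all genes were called, so the share that rose was again near that of all genes. With the mESM arrays averaged, 9 rose and 10 fell in NOD cells (16.4% and 19.2% of all genes), and in non-NOD cells only Bpgm, Pfkfb4, Pfkp and Pgam2 were still called (6.84% and 4.98% of all genes were, higher and lower). The non-NOD comparison rests on 4 arrays: without EpiSC replicate 1 it called 5 members, without EpiSC replicate 2 or either mESM array 4, and without NOD ES replicate 1, which enters through the shared spread, 17. Bpgm, Pfkfb4, Pfkp and Pgam2 were called under each of these omissions. Calls over all genes moved as well and were fewer without either EpiSC array. Without NOD ES replicate 1, 4034 of all genes rose and 3820 fell, beside 2923 and 2668 with all arrays.

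Promoters of members called the same way in both comparisons are shown first, because many genes of this pathway carry HIF binding cores. The RefSeq promoter table (build GRCm38.p6) held 32 of the 34 members with 51 starts. Printed are the 250 bases upstream of the start, 5′ to 3′ on the strand of the gene, in lower case with each ACGTG or GCGTG, read on either strand, in capitals; CACGTG, the E-box, contains ACGTG on both strands and is counted within it. The members that rose:
Pfkfb3, chr2:11553930-11554179, minus strand: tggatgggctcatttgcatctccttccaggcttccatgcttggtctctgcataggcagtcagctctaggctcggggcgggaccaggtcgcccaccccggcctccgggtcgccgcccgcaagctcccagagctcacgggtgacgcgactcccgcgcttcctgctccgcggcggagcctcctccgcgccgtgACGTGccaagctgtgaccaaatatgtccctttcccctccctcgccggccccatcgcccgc
Pfkfb4, chr9:108991652-108991901, plus strand: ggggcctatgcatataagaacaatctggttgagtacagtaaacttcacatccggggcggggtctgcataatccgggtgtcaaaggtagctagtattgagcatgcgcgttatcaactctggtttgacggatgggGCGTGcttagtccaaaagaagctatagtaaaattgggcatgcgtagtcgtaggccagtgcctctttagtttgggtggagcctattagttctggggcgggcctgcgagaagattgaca
Slc16a1, chr3:104638414-104638663, plus strand: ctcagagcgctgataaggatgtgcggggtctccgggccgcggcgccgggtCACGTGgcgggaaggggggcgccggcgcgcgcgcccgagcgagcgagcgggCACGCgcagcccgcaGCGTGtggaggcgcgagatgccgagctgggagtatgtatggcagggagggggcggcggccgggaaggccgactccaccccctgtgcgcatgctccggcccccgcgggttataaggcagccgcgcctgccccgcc
Bpgm, chr6:34476106-34476355, plus strand: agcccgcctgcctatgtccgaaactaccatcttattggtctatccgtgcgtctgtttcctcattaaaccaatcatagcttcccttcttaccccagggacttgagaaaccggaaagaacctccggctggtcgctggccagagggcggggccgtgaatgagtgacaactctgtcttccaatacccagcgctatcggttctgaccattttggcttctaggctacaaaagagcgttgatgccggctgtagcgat
Members that fell and had 1 start in the table:
Pfkp, chr13:6648772-6649021, minus strand: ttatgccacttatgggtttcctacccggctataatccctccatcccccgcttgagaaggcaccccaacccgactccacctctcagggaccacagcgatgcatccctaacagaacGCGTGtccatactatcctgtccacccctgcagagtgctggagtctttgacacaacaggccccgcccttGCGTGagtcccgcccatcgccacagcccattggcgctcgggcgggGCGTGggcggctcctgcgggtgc
Pgam2, chr11:5803797-5804046, minus strand: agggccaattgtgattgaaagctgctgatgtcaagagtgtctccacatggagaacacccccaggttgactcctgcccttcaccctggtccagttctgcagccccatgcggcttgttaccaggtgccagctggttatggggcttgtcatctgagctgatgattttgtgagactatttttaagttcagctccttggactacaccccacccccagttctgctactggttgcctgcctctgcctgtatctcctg
Pdha1, chrX:160138431-160138680, minus strand: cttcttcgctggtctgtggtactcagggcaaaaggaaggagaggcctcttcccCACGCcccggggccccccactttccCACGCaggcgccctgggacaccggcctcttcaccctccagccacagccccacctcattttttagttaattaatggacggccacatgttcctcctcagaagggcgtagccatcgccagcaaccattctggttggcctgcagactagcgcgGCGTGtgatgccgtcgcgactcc
And Eno2, with the widest range between groups:
Eno2, chr6:124769674-124769923, minus strand: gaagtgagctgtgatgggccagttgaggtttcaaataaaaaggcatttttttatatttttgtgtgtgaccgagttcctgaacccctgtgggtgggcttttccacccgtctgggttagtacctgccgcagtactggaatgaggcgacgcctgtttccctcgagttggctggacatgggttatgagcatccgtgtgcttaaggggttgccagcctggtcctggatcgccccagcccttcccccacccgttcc

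Either core occurred in 37 of the 51 member windows (72.5%) and in 38.6% of the 32851 windows of all genes. The member windows belong to 32 genes, 12 of them with several starts, and some windows of a gene overlap, so a site can count more than once. By gene, 27 of the 32 had either core at some start, and no such count was made over all genes. ACGTG alone was in 37.3% of member windows against 16.6% of all, GCGTG in 51.0% against 28.2%, and CACGTG in 11.8% against 6.02%. Member windows also held more CG pairs, with a median of 13 against 6. The printed windows do not sort by direction. Slc16a1 had 2 ACGTG and 2 GCGTG matches, Pfkfb3 had 1 ACGTG at the start shown and Pfkfb4 had 1 GCGTG, while Bpgm had none. The other Pfkfb3 start, not printed, had 2 ACGTG and 1 GCGTG matches. Of those that fell, Pfkp and Pdha1 had 3 GCGTG each and Pgam2 none. Eno2 had none either. A match describes these letters only, and no binding was measured.

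Glucose entry. Slc2a3 (GLUT3; probe at chr6:122764878-122764937 on the minus strand, build mm7), a high-affinity glucose transporter, was lower in EpiSC-like cells and in EpiSC. Its values were 3.93, 3.98, 3.98 and 4.08 in the EpiSC-like ES line and 4.57 and 4.08 in the iPS line, against 5.28, 6.29 and 6.29 in NOD ES. In non-NOD cells they were 5.67 and 5.56 in EpiSC against 7.15 and 7.11 in mESM. The groups do not overlap in either comparison. The log2 difference was -1.79 ± 0.30 (SE, adjusted p = 0.000641) in NOD and -1.51 ± 0.42 (adjusted p = 0.0231) in non-NOD cells, a fall of 3.46-fold and 2.85-fold. Slc2a1 (GLUT1), the widely expressed transporter, fell in non-NOD cells from 6.78 and 6.76 in mESM to 5.82 and 5.76 in EpiSC (-0.98 ± 0.24, adjusted p = 0.0133). In NOD cells it differed by 0.01 ± 0.18, but this mean joined unlike lines: the ES line had 4.37 to 4.77, the iPS line 6.01 and 5.93, and NOD ES 5.17 to 5.29. On the epiESM array Slc2a1 was 5.16, so among the ES arrays only those of mESM lay above EpiSC. Slc2a4 (GLUT4), the insulin-responsive transporter of fat and muscle, rose in NOD cells. It lay at -1.39 to -0.43 in the EpiSC-like arrays against -2.35, -1.95 and -1.68 in NOD ES (1.00 ± 0.18, adjusted p = 0.00102), and at -0.90 and -1.04 in EpiSC against -0.77 and -0.79 in mESM. These differences differed from each other by 1.20 ± 0.31 (test of the interaction, adjusted p = 0.029). The interaction was not called under the other 4 scalings (adjusted p between 0.0905 and 0.247) or with the mESM arrays averaged (0.122). Slc2a4 was -2.73 on the epiESM array, below both EpiSC and mESM.

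Hexose phosphorylation and isomerisation. Hk2, the inducible hexokinase that starts glycolysis at the mitochondrial surface, fell in NOD cells. It was 3.85 to 4.17 in the EpiSC-like ES line and 4.33 and 4.10 in the iPS line, against 4.87, 5.69 and 5.74 in NOD ES (-1.34 ± 0.29, adjusted p = 0.0034). Non-NOD cells gave 4.23 and 4.22 in EpiSC against 5.44 and 5.43 in mESM, a difference of -1.21 ± 0.41 that missed the threshold (adjusted p = 0.0506). Hk2 was lower on each of the 8 EpiSC and EpiSC-like arrays than on each of the 6 ES arrays. Hk1, the housekeeping hexokinase, was not called in either comparison (0.68 ± 0.30 and -0.60 ± 0.42), and 5 of its 6 probes were higher in NOD EpiSC-like cells while all 6 were lower in EpiSC. Gpi1, the isomerase of the next step, differed by -0.01 ± 0.25 and -0.26 ± 0.35.

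Phosphofructokinase. The 3 isozyme genes of this committed step behaved differently. Pfkp (probe at chr13:6475782-6477936, minus strand), the platelet type, had the largest fall of all 34 members in both comparisons. Its values were 0.30, 0.51, 0.64 and 0.52 in the EpiSC-like ES line and 2.16 and 2.23 in the iPS line, against 2.32, 3.76 and 3.60 in NOD ES. EpiSC had 0.43 and 0.51 against 3.19 on both mESM arrays, with epiESM at 1.99. The fall was 3.69-fold in NOD (-1.88 ± 0.40, adjusted p = 0.00305) and 6.62-fold in non-NOD cells (-2.73 ± 0.56, adjusted p = 0.00469), and all 3 probes of the gene had this direction. Pfkp was the only member called the same way in both comparisons under each of the 5 scalings described below. Pfkl, the liver type, fell in NOD cells (-0.65 ± 0.18, adjusted p = 0.0128), with overlapping arrays: 2.76 to 3.18 in the ES line and 3.84 and 4.04 in the iPS line, against 3.84, 4.26 and 4.23. The call was lost without NOD ES replicate 2 (adjusted p = 0.0623) or 3 (0.0595). Its non-NOD difference was -0.13 ± 0.25. Pfkm, the muscle type, rose in NOD cells from 1.88, 2.38 and 2.41 to between 2.70 and 3.12 (0.76 ± 0.19, adjusted p = 0.00699), without overlap, and had 2.45 and 2.43 in EpiSC against 2.08 on both mESM arrays (0.36 ± 0.26, not called).

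The fructose 2,6-bisphosphate switch. The PFKFB enzymes make and degrade the allosteric activator of phosphofructokinase. Pfkfb3 (probe at chr2:11411110-11411169, minus strand), whose product mostly makes the activator, rose in both comparisons. It was 2.88, 2.47, 2.64 and 2.52 in the EpiSC-like ES line and 4.25 and 3.62 in the iPS line, against 1.25, 0.80 and 0.88 in NOD ES. EpiSC had 2.49 and 2.45, mESM 1.31 and 1.30 and epiESM 1.48. Every EpiSC or EpiSC-like array was thus above every ES array, with a rise of 4.94-fold in NOD (2.31 ± 0.20, adjusted p = 6.03e-06) and 2.24-fold in non-NOD cells (1.16 ± 0.28, adjusted p = 0.0108). The other Pfkfb3 probes gave smaller rises, of 1.21 and 1.84 in NOD and only 0.19 and 0.43 in non-NOD cells. Pfkfb4 (probe at chr9:108742376-108742435, plus strand), a further hypoxia-inducible member of the family, also had every EpiSC or EpiSC-like array above every ES array. It lay between 1.15 and 1.58 in the EpiSC-like arrays against 0.29, 0.17 and 0.34 in NOD ES (1.12 ± 0.17, adjusted p = 0.00031), and at 1.60 and 1.57 in EpiSC against -0.32 and -0.30 in mESM (1.89 ± 0.24, adjusted p = 0.000235). Pfkfb1 (probe at chrX:145402403-145402462, plus strand), the liver type, went the other way in both. It was -0.90 to -0.57 in the ES line and -0.08 and -0.13 in the iPS line against 0.42, 0.88 and 1.07 (-1.17 ± 0.18, adjusted p = 0.000264), and 0.37 and 0.33 in EpiSC against 1.06 and 1.11 (-0.73 ± 0.24, adjusted p = 0.0487). The non-NOD call of Pfkfb1 lies just inside the threshold and was lost with the mESM arrays averaged and with slide as a block. Pfkfb2, the heart type, differed by 0.83 ± 0.31 and 0.93 ± 0.43 and was called in neither, with its 4 probes split in direction.

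Aldolase to pyruvate kinase. Eno2 (probe at chr6:124786697-124786756, minus strand), the neuronal enolase, had the largest difference of any member. Its values were 0.42, 0.26, 0.46 and 0.30 in the EpiSC-like ES line and 4.47 and 4.37 in the iPS line, against -1.42, -2.83 and -2.66 in NOD ES. The difference was 4.69 ± 0.45 (adjusted p = 1.24e-05), a 25.9-fold rise by these values, and larger in the iPS line. The probe was well above background on 2 of the 3 NOD ES arrays only, as were those of Slc2a4 and Pdk2. EpiSC had -0.38 and -0.44 and mESM -1.65 and -1.63, a difference of 1.23 ± 0.63 that was not called. The interaction, NOD minus non-NOD difference, was 3.46 ± 0.77 (adjusted p = 0.0146), and was not called with the mESM arrays averaged (adjusted p = 0.0678) or with slide as a block (adjusted p = 0.184). Eno1 (probe at chr4:149233567-149233792, plus strand), the ubiquitous enolase, fell in both (-0.71 ± 0.26, adjusted p = 0.0484; -1.09 ± 0.36, adjusted p = 0.0474). It had 0.48 to 1.67 in the EpiSC-like arrays against 1.66, 2.23 and 2.13, and 1.77 and 1.86 in EpiSC against 2.90 on both mESM arrays. Both calls lie just inside the threshold and were lost without NOD EpiSC-like ES replicate 3 (adjusted p = 0.0615 and 0.0656), and the NOD arrays overlap.

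Pgam2 (probe at chr11:5753822-5755040, minus strand), the muscle phosphoglycerate mutase, fell 3.62-fold in NOD and 3.64-fold in non-NOD cells. Its values were -2.02, -1.55, -2.51 and -1.74 in the ES line and -1.49 and -1.41 in the iPS line, against -0.25, 0.27 and 0.43 in NOD ES (-1.86 ± 0.23, adjusted p = 6.79e-05). EpiSC had -1.52 and -1.78 against 0.20 and 0.23 in mESM (-1.86 ± 0.32, adjusted p = 0.00158), with epiESM at -0.88, so no EpiSC or EpiSC-like array reached an ES array. Pgam1, the form of most tissues, fell less in NOD cells (-0.54 ± 0.17, adjusted p = 0.0262; 0.0946 without iPS line replicate 2), at 5.77 to 7.06 against 6.71 to 7.07 with overlap, and differed by -0.27 ± 0.24 in non-NOD cells. Bpgm (probe at chr6:34436000-34436059, plus strand) makes 2,3-bisphosphoglycerate, best known from red cells. It was 1.92 and 2.08 in EpiSC against 0.19 and 0.20 in mESM (1.81 ± 0.21, adjusted p = 0.000144). In NOD cells the lines split: the ES line had 2.13, 1.95, 2.35 and 2.12, the iPS line -0.08 on both arrays, and NOD ES 0.19, 0.55 and 0.52. The NOD mean difference was 0.61 ± 0.15 (adjusted p = 0.00754), and the interaction -1.20 ± 0.26 (adjusted p = 0.0125; 0.0722 with the mESM arrays averaged). Both Bpgm probes gave these directions, and the 5 erythroid markers tested summed to between -0.50 and 1.83 (log2) on all arrays.

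Tpi1, triosephosphate isomerase, rose in NOD cells (0.98 ± 0.18, adjusted p = 0.00111). The rise lay in the iPS line, at 7.42 and 7.39, since the ES line had 5.25 to 5.72 and NOD ES 5.14, 5.68 and 5.63. Pkm2 fell in NOD cells (-0.89 ± 0.20, adjusted p = 0.00383), here with the ES line low at 4.45 to 5.04, the iPS line at 6.31 and 6.59 and NOD ES at 6.68, 6.47 and 6.32. In non-NOD cells these genes differed by 0.57 ± 0.25 and -0.23 ± 0.28 and were not called. Aldoa, Aldoc, Pgk1 and Eno3 were called in neither comparison, with differences between -1.06 (Eno3) and 1.52 (Aldoc) in NOD cells and between -0.66 (Aldoa) and 0.46 (Eno3) in non-NOD cells. Aldoa, Tpi1, Pgk1, Pgam1, Eno1 and Ldha have processed pseudogenes in the mouse, so their probes may also bind related transcripts.

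Lactate dehydrogenase and export. Slc16a1 (MCT1; probe at chr3:104451002-104451061, plus strand), the common proton-linked lactate and pyruvate carrier, rose in both comparisons. It was 4.00, 3.77, 3.73 and 3.58 in the ES line and 4.34 and 4.01 in the iPS line against 2.87, 3.01 and 3.04 in NOD ES, and 4.32 and 4.68 in EpiSC against 3.56 and 3.58 in mESM. The differences were 1.00 ± 0.16 (adjusted p = 0.000433) and 0.93 ± 0.22 (adjusted p = 0.0108), without overlap in either comparison, although 1 of its 3 probes was lower in EpiSC (-0.47). Slc16a3 (MCT4), the exporter of strongly glycolytic cells, was not called (0.36 ± 0.23 and -0.43 ± 0.32). Nor were Ldha, which favours lactate production (0.42 ± 0.16 and -0.35 ± 0.22), and Ldhb, which favours pyruvate (-1.08 ± 0.52 and -1.18 ± 0.72). Ldhb was 4.38 to 5.07 on the 8 EpiSC and EpiSC-like arrays against 6.08 to 6.45 on NOD ES replicates 2 and 3 and mESM, but 4.09 on NOD ES replicate 1 and 4.76 in epiESM. Without the doubtful arrays, Ldhb fell in both comparisons (-1.86 and -1.18).

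Pyruvate dehydrogenase and its kinases. Pdha1 (probe at chrX:154898033-154898092, minus strand), the catalytic alpha subunit that commits pyruvate to the mitochondrion, fell in both comparisons. Its values were 1.75, 1.77, 1.80 and 1.85 in the ES line and 3.05 and 3.03 in the iPS line against 3.70, 3.42 and 3.51 in NOD ES (-1.13 ± 0.18, adjusted p = 0.000383). EpiSC had 2.22 and 2.19 against 3.19 and 3.21 in mESM (-0.99 ± 0.25, adjusted p = 0.0129). Pdhb (probe at chr14:5976962-5977021, minus strand), the beta subunit of the same enzyme, lay at 2.01 to 2.69 in the EpiSC-like arrays against 3.67, 4.12 and 4.2 (-1.59 ± 0.21, adjusted p = 0.000115). In EpiSC it was 2.92 and 3.01 against 3.74 and 3.73, a difference of -0.77 ± 0.29 that was not called (adjusted p = 0.0817). Both subunits were lower on each EpiSC or EpiSC-like array than on each ES array. Of the kinases that switch the enzyme off, Pdk2 rose in NOD cells from -2.53, -2.60 and -2.02 to between -1.91 and -1.17 (0.83 ± 0.26, adjusted p = 0.0268) and had -2.64 and -3.08 in EpiSC against -2.57 and -2.39 in mESM. This call was lost without iPS line replicate 2 (adjusted p = 0.0863) or NOD ES replicate 1 (0.0658) or 2 (0.103). Pdk1, Pdk3 and Pdk4 were not called in either (-0.37 to 1.16 in NOD, -1.08 to -0.57 in non-NOD cells). For Pdk1 this depends on the probe: the one used differed by -0.37 and -0.57, its second probe by -1.52 and -1.59. That second probe was well above background on all 16 arrays. The second Pdk3 probe had the opposite sign in NOD cells (0.61 against -0.35).

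**Figure D2:**
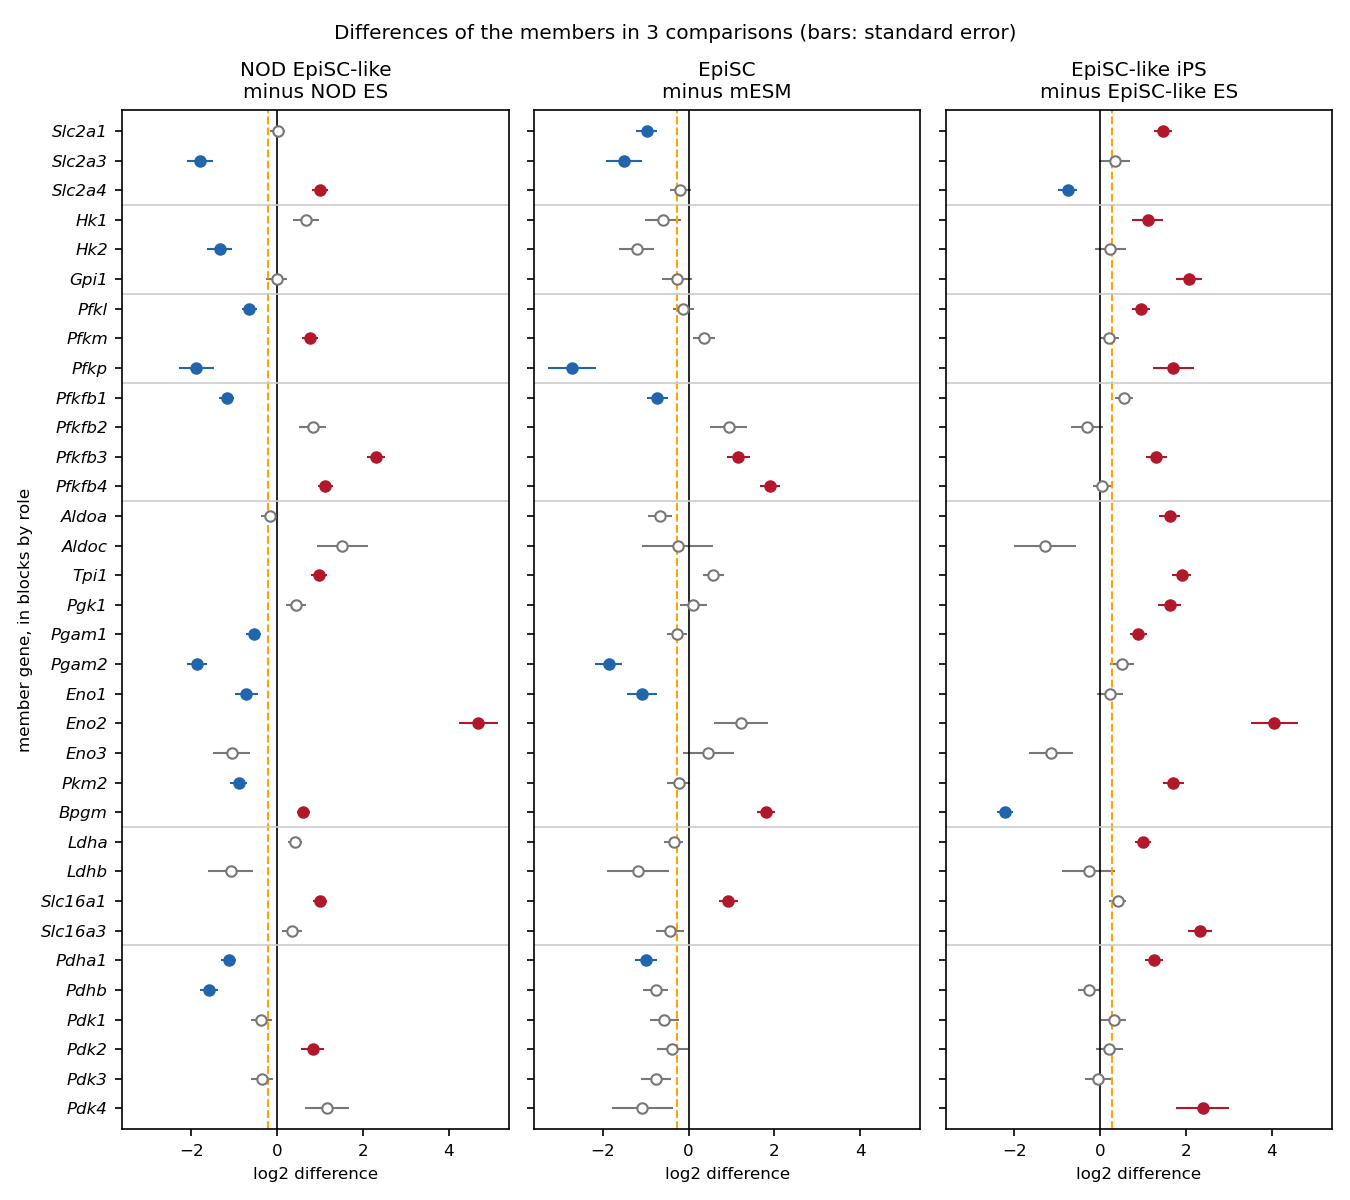
Log2 differences of the 34 members with standard errors in the 2 state comparisons and between the 2 NOD EpiSC-like lines; filled red points rose and filled blue points fell (adjusted p under 0.05), open points were not called, and the orange line is the median of all genes. Pfkfb3 and Pfkfb4 are red in both state comparisons, Pfkp and Pgam2 blue in both, and in the comparison of lines 16 points are red and 2 blue.

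Ratios between isozymes on the same array are not moved by a scaling factor and describe how unequally they changed. The Slc2a1 to Slc2a3 ratio (log2) was 0.15 to 1.84 on the 8 EpiSC and EpiSC-like arrays and -1.15 to -0.12 on the 6 ES arrays. The Hk1 to Hk2 ratio was -1.42 to 0.54 against -3.42 to -1.76. The Eno1 to Eno2 ratio was -3.22 to 2.29 against 3.07 to 5.06. These 3 ratios separated the states with no overlap in the processed signal, in background-corrected values and in the deposited table. For Pfkl to Pfkp (1.68 to 3.68 against 0.50 to 1.52) and Pfkfb3 to Pfkfb1 (2.11 to 4.33 against -0.19 to 0.83), background-corrected values overlapped; the second pair was chosen after its values were seen. The other 7 pairs overlapped, among them Ldha to Ldhb, at 1.71 to 3.16 against 0.26 to 3.06. EpiSC iPS arrays lay among the ES arrays for Slc2a1 to Slc2a3 (-0.86 and -0.23) and Pfkfb3 to Pfkfb1 (-0.03 and 0.22), but EpiSC iPS replicate 1 lay among the EpiSC and EpiSC-like arrays for Hk1 to Hk2 (-0.94) and Pfkl to Pfkp (2.50).

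**Figure D3:**
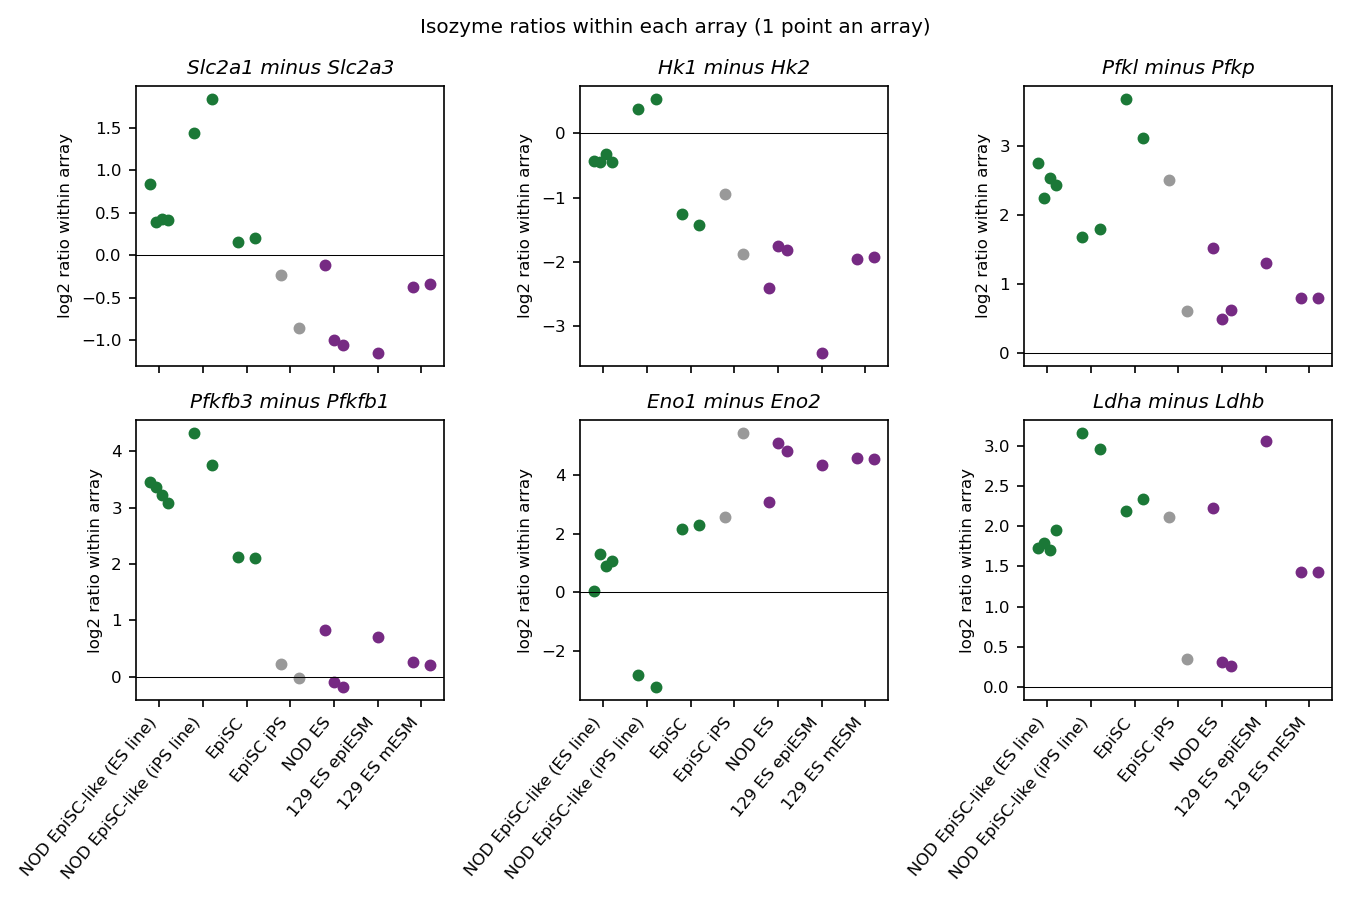
Within-array log2 ratios of 6 isozyme pairs, 1 point an array, by group; green marks EpiSC and EpiSC-like arrays, grey EpiSC iPS and purple ES arrays. Green and purple do not overlap in the first 5 panels and overlap for Ldha to Ldhb.

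The NOD EpiSC-like lines also differed from each other. In the iPS line 16 of the 34 members were higher than in the ES line (47.1%, against 13.8% of all genes) and 2 were lower (5.88% against 11.8%). Without overlap between the arrays of the lines, 21 members were higher and 4 lower, these 18 among them, where 30.4% and 25.2% of all genes were. The members' median difference was 0.53, beside 0.27 for all genes. The higher members run along the whole route: Slc2a1 (1.46), Hk1 (1.11), Gpi1 (2.07), Pfkl (0.95), Pfkp (1.70), Pfkfb3 (1.31), Aldoa (1.62), Tpi1 (1.90), Pgk1 (1.62), Pgam1 (0.89), Eno2 (4.06), Pkm2 (1.71), Ldha (0.99) and Slc16a3 (2.32), with Pdha1 (1.25) and Pdk4 (2.39) at the entry to the mitochondrion. Gpi1 was 8.03 and 7.83 in the iPS line against 5.72 to 6.15 in the ES line, a 4.21-fold difference (adjusted p = 0.000622). Slc16a3 was 5.80 and 5.90 against 3.28 to 3.84, 5.0-fold (adjusted p = 0.000197). Pdk4, a kinase induced in fasting, was 1.5 and 1.20 against -1.18 to -0.98, 5.24-fold (adjusted p = 0.0158). Bpgm was 4.65-fold lower (-2.22 ± 0.18, adjusted p = 2.37e-05) and Slc2a4 1.69-fold lower (-0.76 ± 0.22, adjusted p = 0.0263). The second Pdha1 probe had the opposite sign (-0.93). On the 1 slide that held both lines all 18 had the same sign, which was fixed in advance because their arrays did not overlap. With slide as a block 6 were called higher and 1 lower (4.88% and 4.41% of all genes): Gpi1, Pfkfb3, Aldoa, Tpi1, Pgk1, Slc16a3 and Bpgm. Without the doubtful arrays 17 were higher and 4 lower, including these 18, where 28.2% and 22.2% of all genes were called. Hk1, Pfkp, Pdk4 and Slc2a4 were not called without iPS line replicate 1 (adjusted p from 0.0802 to 0.14), nor without replicate 2 (0.0847 to 0.188), and Pgam1 was lost in the first case (0.0846) and Pfkl in the second (0.0842).

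This comparison depended on how the arrays were scaled. Quantile normalization gave 11 higher and 1 lower (11.7% and 14.5% of all genes), 11 and 2 in the deposited table (12.7% and 15.4%), and the array median 10 and 1 (6.73% and 10.6%). With normexp background correction limma called 0 members (10 at an unadjusted p under 0.05), where 0.00431% and 0.259% of all genes were called. The members' median was then -0.48 and that of all genes 0.72, and 10 of the 18 members, Slc2a1, Hk1, Pfkl, Pfkfb3, Pgam1, Pkm2, Pgk1, Ldha, Pdha1 and Slc2a4, changed sign. Eno2, Bpgm and Slc16a3 were among the 8 that did not.

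The calls of the NOD state comparison moved less, whereas those of the non-NOD comparison dropped with the array median and with normexp. In NOD cells quantile normalization gave 13 higher and 8 lower (20.3% and 18.9% of all genes), 12 and 9 in the deposited table (20.6% and 18.9%), the array median 7 and 9 (14.4% and 20.7%), and normexp 4 and 13 (17.1% and 15.7%). In non-NOD cells the counts were 4 and 8 (13% and 10.7%), 4 and 9 (13.3% and 12.8%), 3 and 2 with the array median (11.9% and 6.75%), and with normexp 1 and 1 (4.28% and 2.36%). All 20 calls of the NOD comparison kept their sign under these scalings, except that Pfkm (-0.36), Slc16a1 (-0.33) and Tpi1 (-0.20) turned with normexp. All 11 calls of the non-NOD comparison kept theirs. All-gene medians ran from -0.32 to 0.60 in NOD and from -0.28 to 0.03 in non-NOD cells.

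**Figure D4:**
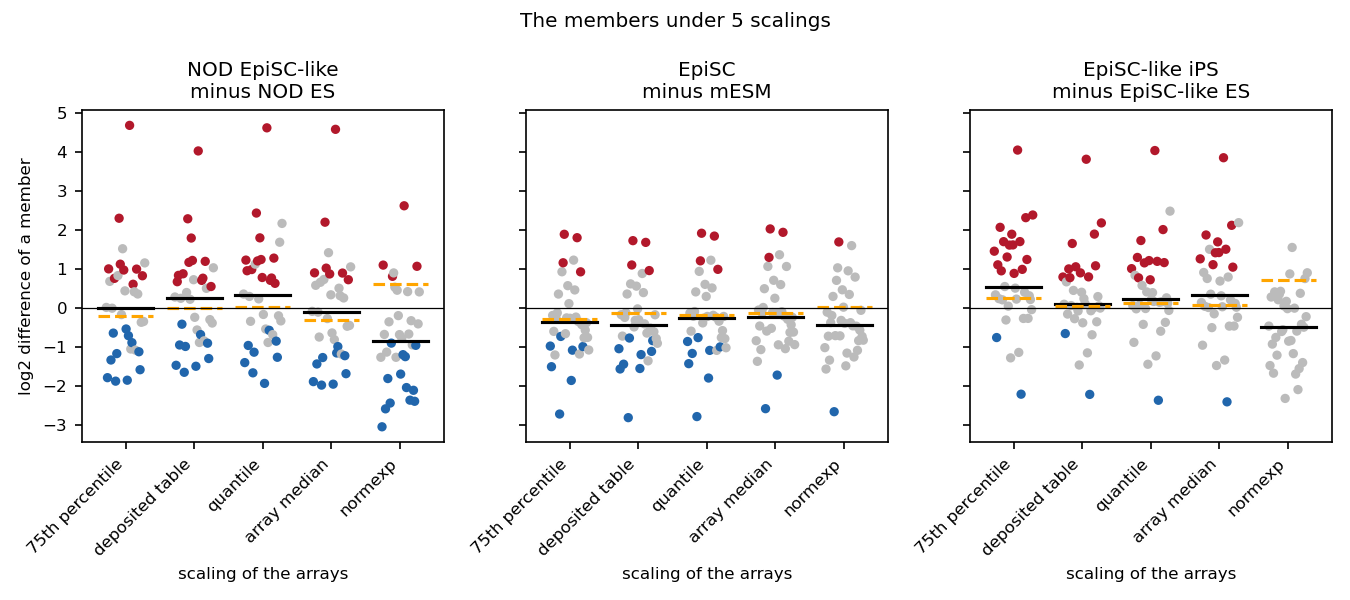
Log2 differences of the 34 members under 5 scalings in 3 comparisons; red points rose, blue fell, grey were not called; the black bar is the members' median and the dashed orange bar that of all genes. With normexp the members' bar lies below the all-gene bar in each panel (-0.84 against 0.60, -0.43 against 0.03, and -0.48 against 0.72), whereas with the 75th percentile it lies above it in the NOD comparisons.

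The remaining comparisons share arrays with those above. NOD EpiSC-like cells against EpiSC gave 4 members higher (7.97% of all genes were) and 3 lower (8.09%): Hk1 (1.23), Pfkfb3 (0.81), Eno2 (2.80) and Pdk2 (1.30) were higher, and Slc2a3 (-1.46), Pfkfb1 (-0.73) and Bpgm (-0.97) lower. Hk1, for example, was 3.40 to 4.71 in EpiSC-like cells against 2.99 and 2.80 in EpiSC. The interaction of the 2 state comparisons was called for 2 members upward (4.93% of all genes) and 1 downward (7.55%), namely Slc2a4, Eno2 and Bpgm, and for none of them with the mESM arrays averaged (limma; 6 members had an unadjusted p under 0.05; 1.64% and 2.8% of all genes were called). Leaving out EpiSC replicate 1 or 2 lowered the 7 calls against EpiSC to 1 and 0 (limma), and leaving out NOD ES replicate 1 raised them to 12. Calls over all genes against EpiSC also dropped without either EpiSC array. Without NOD ES replicate 1 they grew to 3244 higher and 3081 lower, from 1848 and 1877. The arrays labelled EpiSC iPS, which carried naive markers, against EpiSC gave 4 higher (11.7% of all genes) and 5 lower (9.18%). Pfkp (2.21), Pgam2 (1.71), Pkm2 (1.1) and Pdha1 (1.63) were higher and Slc2a4 (-0.88), Pfkfb3 (-1.35), Pfkfb4 (-1.08), Bpgm (-1.48) and Slc16a1 (-1.39) lower. Without the doubtful arrays 7 were higher and 14 lower (24.2% and 17.5% of all genes), from 1 EpiSC iPS array. Without EpiSC replicate 1 or 2, which leaves 1 EpiSC array, fewer members and fewer of all genes were called than with all arrays.

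ES cells of different origin or culture were set against mESM, and these calls rest on the 2 mESM arrays being separate samples. NOD ES had 0 members higher (6.06% of all genes were) and 3 lower (2.93%): Slc2a1 (-1.55, adjusted p = 0.0029), Slc2a4 (-1.21, adjusted p = 0.00978) and Ldha (-0.96, adjusted p = 0.0143). The single epiESM array had 0 higher (2.52%) and 2 lower (1.5%), Slc2a1 (-1.61) and Slc2a4 (-1.95), with its spread taken from the other groups; as 1 array it is a description. At an unadjusted p under 0.05 limma counted 10 and 7 members. Slc2a1 was 6.78 and 6.76 in mESM, 5.16 in epiESM and 5.17, 5.29 and 5.22 in NOD ES, so mESM stood above the other ES arrays. With the mESM arrays averaged no call was left in either comparison (4 and 6 members at an unadjusted p under 0.05), where 0.513% and 0.198% of all genes were called in the first and 0.28% and 0.164% in the second. Both comparisons use the same mESM arrays.

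Other genes of the pathway were counted from lists chosen for this work. Beside these counts, 17.3% of all genes rose and 20.8% fell in NOD cells, and 12.6% and 11.5% in non-NOD cells. Of 18 further glycolysis and transport genes, 3 rose and 4 fell in NOD cells and 1 rose and 7 fell in non-NOD cells. The NOD counts of this list were near the shares of all genes. Tigar, which lowers fructose 2,6-bisphosphate, fell in both (-4.32 and -3.97), as did the testis lactate dehydrogenase Ldhc (-3.98 and -5.0). Bsg, the chaperone of the lactate carriers, rose in NOD cells (1.82) and Slc2a12 in non-NOD cells (4.78). Of 7 pentose phosphate genes, 5 fell in NOD cells, among them Rpe (-2.91), Taldo1 (-1.22), Pgd (-0.99) and Tkt (-0.68), and 1, Rpe (-1.68), in non-NOD cells. With a median of -0.99 in NOD cells this list lay below that of all genes, also with normexp (-1.23). Of 20 tricarboxylic acid cycle genes 1 rose and 6 fell in NOD cells and 2 fell in non-NOD cells, with Idh3a, a subunit of isocitrate dehydrogenase, among them in both (-1.06 and -1.62). Of 8 genes of pyruvate entry 3 rose and 1 fell, then 2 rose and 1 fell: Pdp1, the phosphatase that reactivates pyruvate dehydrogenase, rose in both (2.58 and 1.24), as did the pyruvate carrier subunit Mpc2 (1.27 and 0.94). Of 12 glycogen and hexose branch genes 5 and 3 rose and none fell, with the branching enzyme Gbe1 (2.46 and 1.12) and the liver phosphorylase Pygl (1.81 and 2.47) in both. Of 7 gluconeogenesis genes 1 rose and 1 fell in NOD cells (G6pc3, 0.96; Pck2, -2.31) and Fbp1 fell in non-NOD cells (-2.51).

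In the state comparisons 17.3% of all genes rose and 20.8% fell in NOD cells, and 12.6% and 11.5% in non-NOD cells. Genes that hypoxia is known to induce outside glycolysis were counted in the same comparisons. Of 16 listed, 11 rose and 1 fell in NOD EpiSC-like against NOD ES, led by the peptide hormone Adm (3.43), the angiogenic factor Vegfa (2.90), Ndrg1 (2.79) and the HIF prolyl hydroxylase Egln3 (2.34). In EpiSC against mESM only Egln3 was called, and it fell (-0.94), with a list median of -0.31 beside -0.28 for all genes. In the iPS line against the ES line 13 rose and none fell (13.8% and 11.8% of all genes), with Vegfa at 3.83 and a list median of 2.0. In the NOD state comparison and the comparison of lines, 12 and 13 rose with quantile normalization (20.3% and 11.7% of all genes). The deposited table gave the same counts (20.6% and 12.7% of all genes). With normexp 4 rose in NOD cells (17.1% of all genes). Between the lines limma then called 0 (3 at an unadjusted p under 0.05), where 0.00431% and 0.259% of all genes were called. The list medians of 0.42 and 0.33 lay below those of all genes. Without the doubtful arrays 12 rose and 2 fell in NOD cells (24.3% and 27.1% of all genes). In non-NOD cells 2 then rose and 6 fell (21.8% and 22.6%), and all 16 were higher in the iPS line (28.2%). Of 10 HIF factors and oxygen sensors 3 rose and 1 fell in each state comparison, with Egln1 (1.59) and the inhibitor Hif1an (-1.37) in NOD cells and Cited2 (1.47) in non-NOD cells. Hif1a and Epas1 were singled out after their values were seen. Hif1a rose in both state comparisons (0.83 and 1.13) and was lower in the iPS line (-1.27), while Epas1 was higher there (2.31, adjusted p = 0.0411). The NOD comparisons share the EpiSC-like arrays.

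**Figure D5:**
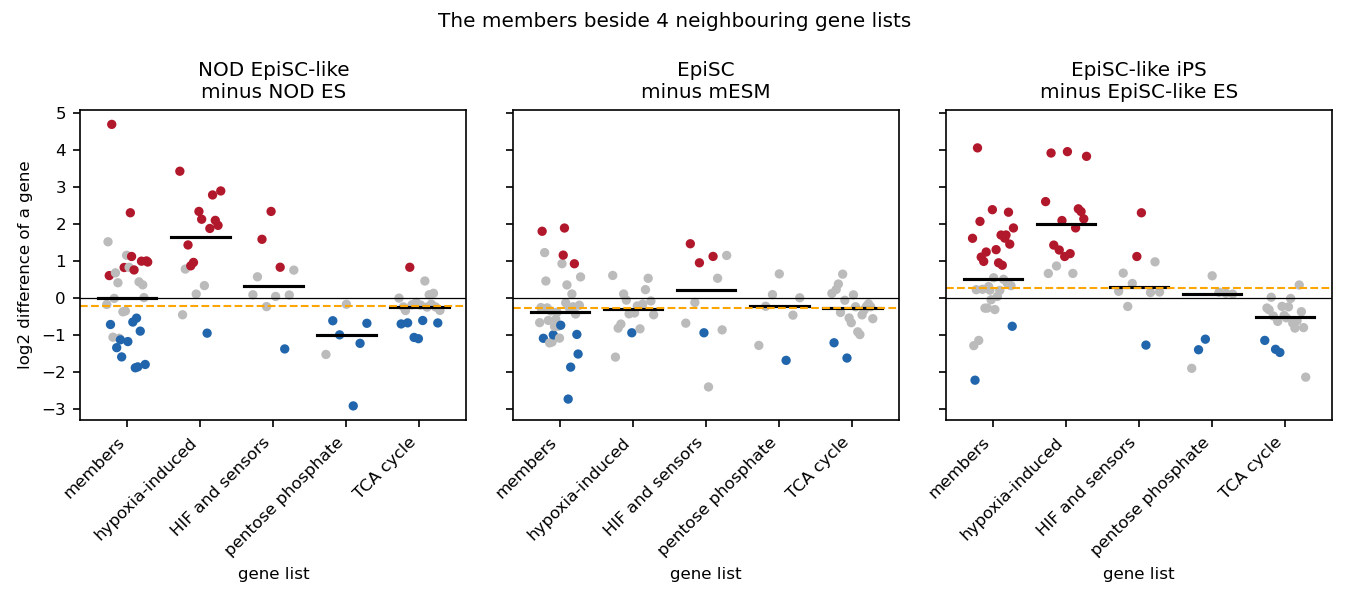
Log2 differences of the members and of 4 neighbouring gene lists in 3 comparisons; red points rose, blue fell, grey were not called; black bars are list medians and the dashed orange line the median of all genes. The hypoxia-induced list has medians of 1.66, -0.31 and 2.0 from left to right, and the pentose phosphate list -0.99 in the first panel.

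Sums of markers of other cell types differed between the same groups. Beside the counts of called markers, 17.3% of all genes rose and 20.8% fell in NOD cells, and 12.6% and 11.5% in non-NOD cells. Between the lines 13.8% were higher and 11.8% lower. The summed signal of 10 fibroblast markers (log2) was 8.88 to 9.39 in the EpiSC-like ES line, 8.28 to 8.43 in the iPS line and 8.13 to 8.27 in EpiSC, against 5.66 to 7.56 in NOD ES, 3.50 to 3.52 in mESM and 7.93 in epiESM. On every EpiSC and EpiSC-like array 10 of the 10 were detected, and 8 rose in NOD and 9 in non-NOD cells. That of 8 neural and glial markers was 6.13 to 6.34 in the ES line, 4.21 in the iPS line, 4.92 to 5.12 in EpiSC and 2.17 to 2.72 on the 6 ES arrays, with 8 detected on every EpiSC-like array and 1 to 8 in NOD ES. Eno2 is itself a neural gene. Between the EpiSC-like lines the neural sum was lower in the iPS line, where Eno2 was higher. Summed muscle markers, relevant to Pgam2, Pfkm and Eno3, were 1.75 to 2.80 on the EpiSC and EpiSC-like arrays and 3.34 to 5.4 on the ES arrays. The muscle sum was thus lower on every EpiSC and EpiSC-like array than on every ES array. By single marker, of 7 tested 0 rose and 1 fell in each state comparison. The medians of the list were -0.25 in NOD and -0.19 in non-NOD cells, beside -0.22 and -0.28 for all genes. The sum of 8 extraembryonic endoderm markers was 3.43 to 3.50 in the iPS line, 2.04 to 2.33 in the ES line, 2.52 to 2.68 in EpiSC and -0.39 to 1.20 on the 6 ES arrays; 4 of the 8 rose in NOD cells and 1 in non-NOD cells, and 2 were higher in the iPS than in the ES line. Of the 8 primed epiblast markers 6 rose and 1 fell in NOD cells, taken over the mean of both lines, 4 were lower in the iPS than in the ES line, and 8 rose in non-NOD cells. Of the 8 naive markers 7 fell in each state comparison. The part of these cell types in the members' differences was not tested.

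Slides held groups unevenly. On the 1 slide with both an EpiSC-like array and NOD ES arrays, 19 of the 20 NOD calls had the same sign, Tpi1 being the exception (-0.28). That slide held the ES line only. For 7 of the 9 members that rose and 7 of the 11 that fell the groups did not overlap, so their sign within the slide was fixed in advance. With slide as a block 2 members rose and 6 fell in NOD cells (13.9% and 12.8% of all genes), Eno2 (5.01) and Pfkfb3 (2.34) against Slc2a3 (-2.01), Pfkl (-1.17), Pfkfb1 (-1.63), Pgam2 (-1.61), Pkm2 (-1.25) and Pdhb (-1.43), and in non-NOD cells only Bpgm (1.69) and Pgam2 (-1.34) were called (4.46% and 4.27% of all genes, higher and lower). EpiSC and mESM shared no slide, so their slide and group cannot be told apart within a slide. Of the 18 members with several usable probes, all probes had 1 direction for 14 in NOD and 16 in non-NOD cells.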

How the data were processed

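RNA was isolated with a column kit, and 0.5 µg was labelled with Cy3 and hybridised to single-colour Agilent arrays of design 014868, per the labels' protocols and the file headers. The deposited scanner files hold spot intensity extracted by Feature Extraction 10.1.1.1 with probe positions on mm7, per the file headers. The deposited value table is on a log2 scale; set against the scanner values, it equals quantile-normalized mean signals without background correction, and limma, with no settings stated, is the tool listed in the submitters' processing notes.

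Here log2 processed signals were centred on each array's 75th percentile over gene probes. Per gene the brightest probe well above background on at least 2 arrays was used (R 4.3.3, limma 3.58.1; 1 mean per group over 16 arrays, empirical Bayes, Benjamini-Hochberg over 23192 genes, threshold 0.05). The NOD EpiSC-like mean weights both lines equally. Fits were checked on simulated data. Named in full are members called in either state comparison or their interaction, and up to 4 called genes of a list with the largest differences there. Alternatives were quantile normalization, array-median scaling, normexp background correction with an offset of 50, the deposited table, no probe filter, the mean over probes, slide as a block, the doubtful arrays left out, the mESM arrays averaged, and each array left out. Members, lists and tests were chosen with earlier results of these data known. The number of arrays limits the precision. Gapdh was not analysed here. Promoters are from RefSeq, GRCm38.p6.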

Additional observations from a re-analysis of the deposited data

Results flagged for a closer look

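Within the 4 arrays of the NOD EpiSC-like ES line, replicate 2 stood apart from the others for 2 members. Pfkfb1 was -0.90 on this array and -0.58 to -0.57 on the others, and Pdk4 was -1.18 against -1.0 to -0.98. Chance flags about 1 in 20 groups of this size, and 34 members were looked at. The difference between EpiSC or EpiSC-like and ES cells was not the same in NOD and non-NOD cells for 3 members by limma's test of the interaction: by 1.20 for Slc2a4 (adjusted p = 0.029), by 3.46 for Eno2 (adjusted p = 0.0146) and by -1.20 for Bpgm (adjusted p = 0.0125). Without an mESM array the adjusted p-values of the 3 members were between 0.0667 and 0.123.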

How the results depend on the processing

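The NOD state comparison called 20 members, 8 with slide as a block and 17 to 24 with 1 array left out. EpiSC against mESM called 11, 5 with the array median, 2 with normexp, 2 with slide as a block, 4 with the mESM arrays averaged, 23 without the doubtful arrays and 4 to 17 with 1 array left out. The interaction had 3 calls, 6 with quantile normalization, 1 with the array median, 0 with normexp, 6 with the deposited table, 0 with slide, 17 without the doubtful arrays, 0 with mESM averaged and 0 to 6 with 1 array left out. EpiSC-like against EpiSC had 7, 1 with normexp, 11 with the deposited table, 3 with slide, 15 without the doubtful arrays, 4 with mESM averaged and 0 to 12 with 1 array left out. The comparison of lines had 18, 11 with the array median, 0 with normexp, 7 with slide and 13 to 20 with 1 array left out. EpiSC iPS against EpiSC had 9, 0 with normexp, 4 with slide, 21 without the doubtful arrays and 5 to 16 with 1 array left out. NOD ES against mESM had 3, 1 with the array median, 0 with normexp, slide or mESM averaged, 9 with the deposited table, 5 with the mean over probes, 12 without the doubtful arrays and 0 to 5 with 1 array left out. The epiESM comparison had 2, 0 with the array median, normexp, slide or mESM averaged, 4 with the deposited table, 12 without the doubtful arrays and 0 to 4 with 1 array left out. In the normexp fits that called 0 members, limma gave 2 to 10 at an unadjusted p under 0.05. Calls over all 23192 genes moved with the setting too. The interaction had 1143 genes higher and 1751 lower, 3533 and 4661 without the doubtful arrays, and 6 and 23 with normexp. NOD ES against mESM had 1406 and 680, then 3916 and 2076 without the doubtful arrays. A changed member count is therefore not a trait of the members alone.

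With normexp the sign turned for Pfkm (-0.36), Slc16a1 (-0.33) and Tpi1 (-0.20) in the NOD state comparison, Hk1 (-0.19) and Pfkfb3 (-0.56) against EpiSC, and, between the lines, Hk1 (-0.93), Ldha (-0.60), Pdha1 (-0.42), Pfkfb3 (-0.61), Pfkl (-0.76), Pgam1 (-0.85), Pgk1 (-0.018), Pkm2 (-0.0055), Slc2a1 (-0.47) and Slc2a4 (0.28). With the deposited table it turned between the lines for Aldoa (-0.077), Ldha (-0.072) and Pgam1 (-0.38). Without the doubtful arrays it turned for the interaction of Ldhb (-0.67), for Eno3 (0.99), Pdk4 (-0.88) and Slc2a3 (-0.65) in EpiSC iPS against EpiSC, and for Aldoc (0.51) in NOD ES against mESM, none of which was called with all arrays. Within a slide, Tpi1 (-0.28) turned in NOD cells and Bpgm (0.26) against EpiSC. The cause of these changes was not tested. No paired analysis was possible because the labels give no replicate numbers that groups share. Dim probes limit the weakest members: NOD ES replicate 1 had the smallest share of probes above background, 26.3%.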
